A study of Mus musculus with 6 samples.

Results

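The 9 genes described here are transcription factor genes of the Sox, Pax, Irx and Zic families and the filament gene Nes that mark neural progenitors, namely Sox1, Sox2, Sox3, Sox21, Pax6, Irx3, Nes, Zic1 and Zic2. They were chosen by symbol, and all 9 were found among the 21877 gene symbols of the deposited table. Expression was measured by RNA sequencing in whole mouse embryos labelled embryonic day 7.5, with 3 libraries of the Rnf111 S254D knock-in genotype (KI) and 3 of wild type (WT). Rnf111, also called Arkadia, is a ubiquitin ligase known to strengthen Nodal and TGF-beta signalling, and the comparison asks which transcripts differ in embryos with the altered protein. Neither zygosity, strain, sex and litter nor the number of embryos per library is given in the sources used here, so p-values reflect only the spread among these libraries, part of which may be technical.

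The SoxB1 factors Sox1, Sox2 and Sox3 bind DNA through an HMG box and are known to keep neural progenitors undifferentiated, while Sox21, a SoxB2 factor, is known as a repressor that opposes them in the chick neural tube. Pax6 and Irx3 are homeodomain factors that divide the neural tube into progenitor domains, Zic1 and Zic2 are zinc-finger factors of the neural plate and dorsal neural tube, and Nes encodes nestin, the intermediate filament of neural progenitors. Neural fate arises in the ectoderm where Nodal and BMP signalling are held low. Several of these genes are not confined to neural tissue, since Sox2 and Zic2 are also active in the epiblast and Nes in early muscle and endothelium.

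Values are RPKM (reads relative to exon length and library depth), so levels of different genes can be set side by side. The library depths recovered from the values ran from 9763044 to 11527428 reads in KI and from 12676635 to 13559225 reads in WT. Libraries KI 2 and WT 3 stood apart from the other 4: over 10104 tested genes their log2 values correlated with every other library at Pearson's r of 0.939 to 0.973, while KI 1, KI 3, WT 1 and WT 2 correlated with one another at 0.988 to 0.996. Even the most alike libraries, WT 1 and WT 2, differed by more than sampling noise (mean chi-square per gene 3.92, where 1 would be noise alone) and were counted separately. Pou5f1, a factor known for high levels in the epiblast before and during gastrulation, was listed at 0 in 5 libraries and at 0.04 RPKM in KI 3, and of 6 maternal decidua markers 5 were listed at 0 throughout and the remaining marker, Prl8a2, did not exceed 0.32 RPKM. Y-linked Ddx3y was at 3.24, 24.7 and 0 RPKM in KI 1, KI 2 and KI 3 and at 17.1, 17.1 and 24.1 RPKM in WT 1, WT 2 and WT 3, so the Y-linked level differed between libraries of the KI group.

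None of the 9 genes differed between KI and WT past the threshold of an adjusted p under 0.05. Sox21 came nearest to a difference, with all 3 KI values above all 3 WT values, and the largest part of its excess lay in a single library, KI 2. Sox1, Sox2, Sox3, Irx3, Zic1 and Zic2 were also highest in KI 2, while Pax6 and Nes were not. The test was limma's on log2(RPKM + 1), adjusted by Benjamini-Hochberg, and it called 0 of all 10104 genes tested (0%). Of these genes 121 had an unadjusted p under 0.05, with 0.999, after rounding, as the lowest adjusted p. The voom form of limma on recovered reads called 0 of 9734 genes, with 90 at an unadjusted p under 0.05. Genes needed at least 1 RPKM in at least 3 libraries to be tested, and 5 of the 9 did so, namely Sox2, Sox21, Pax6, Irx3 and Nes. Sox1, Sox3, Zic1 and Zic2 fell below that minimum.

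**Figure D1:**
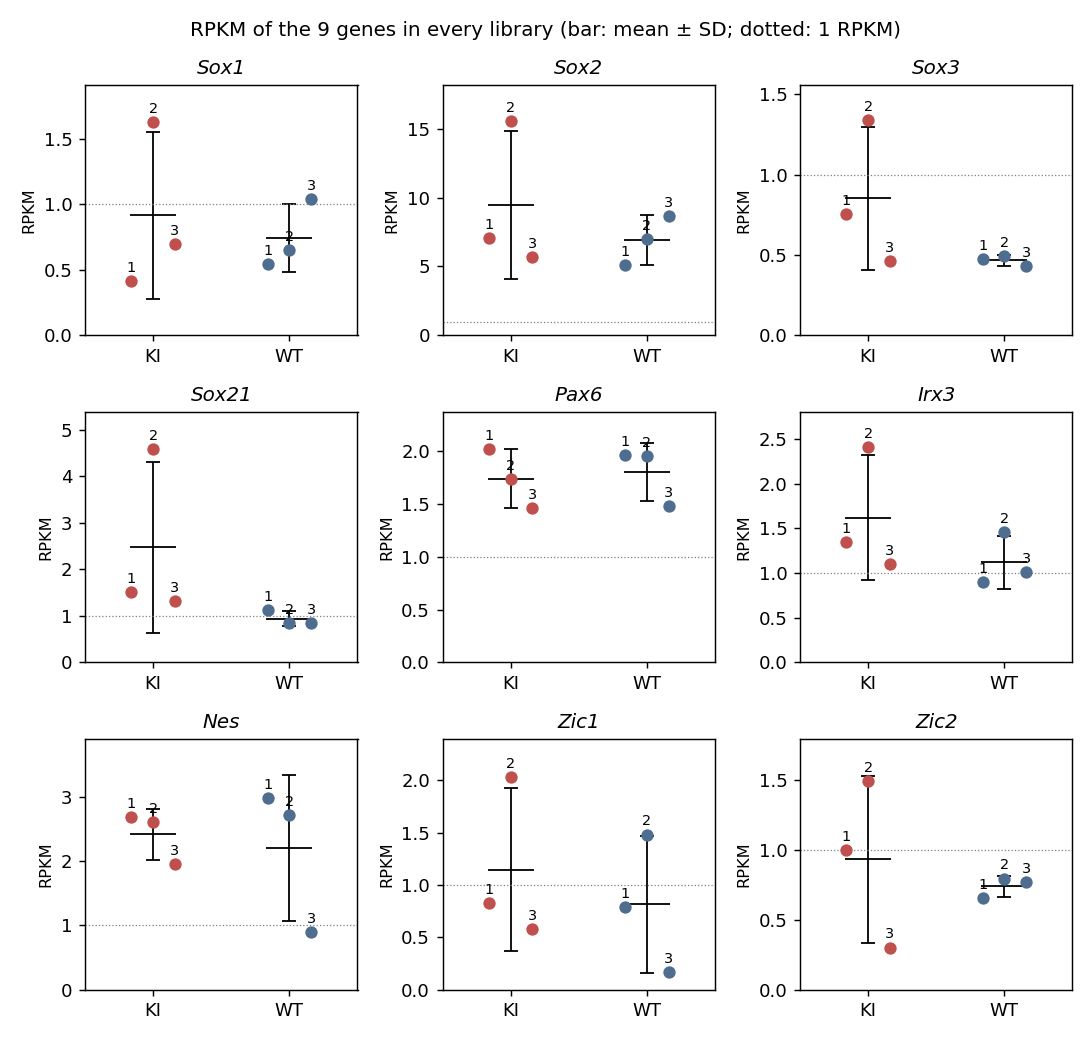
RPKM (vertical axis, from 0, own scale in each panel) of each of the 9 genes in the 3 KI libraries (red) and the 3 WT libraries (blue), with the replicate number above each point, the mean and SD as black bars and 1 RPKM as a dotted line. KI 2 is the highest point for 7 genes, and Sox21 is the gene whose groups do not overlap, with KI at 1.32 to 4.58 and WT at 0.851 to 1.13 RPKM.

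Among the 9 genes the level of Sox2 stood above the rest in every library. Its lowest value, 5.07 RPKM in WT 1, was higher than the highest value of any other of the genes, 4.58 RPKM for Sox21 in KI 2. By the mean of the 6 libraries the order was Sox2 (8.18 RPKM), Nes (2.30), Pax6 (1.77), Sox21 (1.71), Irx3 (1.37), Zic1 (0.980), Zic2 (0.834), Sox1 (0.830) and Sox3 (0.659). From Nes downwards the ranges of neighbours in this order overlapped, so their places are not separated by these data. Among all symbols, 35.7% had a higher mean than Nes and 49.6% had a higher mean than Sox3, the lowest of the 9. At 1 RPKM or more there were 5, 9 and 5 of the genes in KI 1, KI 2 and KI 3, and 4, 5 and 4 in WT 1, WT 2 and WT 3.

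Sox2, the SoxB1 factor shared by epiblast and neural progenitors, was at 7.06, 15.6 and 5.69 RPKM in KI 1, KI 2 and KI 3 and at 5.07, 7.02 and 8.68 RPKM in WT 1, WT 2 and WT 3, from 135 to 313 reads per library. KI 2 was the highest library, and KI 1 and KI 3 lay within the range of the WT libraries. The means were 9.44 ± 5.36 RPKM in KI and 6.92 ± 1.80 RPKM in WT (mean ± SD over 3 libraries per group), a log2 difference of 0.31 (SE 0.36, 95% interval -0.55 to 1.16) with an adjusted p of 0.999 by limma. The difference was smaller than the spread between replicates, and without KI 2 its direction turned (-0.08). It was 0.57 without KI 3, 0.13 without WT 1, 0.07 with library weights and 1.04 with a Y-linked covariate. In a bulk library fewer cells of a type and less RNA per cell cannot be told apart.

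Sox1, the SoxB1 factor most restricted to neural tissue, was at 0.414, 1.63 and 0.700 RPKM in KI 1, KI 2 and KI 3 and at 0.544, 0.653 and 1.04 RPKM in WT 1, WT 2 and WT 3. KI 1 was its lowest and KI 2 its highest library, so the KI values enclosed all WT values (exact permutation test, two-sided, p = 0.8; the design allows no p below 0.1). Sox3, the X-linked SoxB1 gene, was at 0.758, 1.34 and 0.462 RPKM in KI 1, KI 2 and KI 3, against 0.473, 0.497 and 0.429 RPKM in WT 1, WT 2 and WT 3. Its 3 WT values lay close together, KI 1 and KI 2 lay above them, and KI 3 lay among them (exact two-sided permutation p = 0.3). Without KI 2 the mean log2 difference of Sox1, 0.09, became -0.16. The Sox3 values rest on only 11 to 27 reads per library. The exact Poisson 95% interval of KI 1 began at 0.449 RPKM, below WT 1 and WT 2 and above WT 3, and that of KI 2, 0.883 to 1.95 RPKM, lay above all 3 WT values. Such intervals cover counting error only. The mean log2 difference of Sox3 was 0.31 with a pseudocount of 1, 0.65 with a pseudocount of 0.1 and 0.13 without KI 2. The Y-linked levels given above differ between the same libraries, with none detected in KI 3, and their part in the level of this X-linked gene was not tested.

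Sox2 made up most of the SoxB1 group in every library. The summed level of Sox1, Sox2 and Sox3 was 8.23, 18.6 and 6.86 RPKM in KI 1, KI 2 and KI 3, and 6.09, 8.17 and 10.1 RPKM in WT 1, WT 2 and WT 3. Sox2 made up 85.8%, 84.0% and 83.0% of that sum in KI 1, KI 2 and KI 3, and 83.3%, 85.9% and 85.5% in WT 1, WT 2 and WT 3. Its share averaged 84.3 ± 1.4% in KI and 84.9 ± 1.4% in WT (mean ± SD over 3 libraries per group), and the groups overlapped. Sox1 held 5.03% to 10.2% of the sum in KI and 7.995% to 10.2% in WT, and Sox3 held 6.74% to 9.21% in KI and 4.23% to 7.76% in WT. The shares are of RPKM, so a longer transcript does not weigh more. This composition was described without a test.

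**Figure D2:**
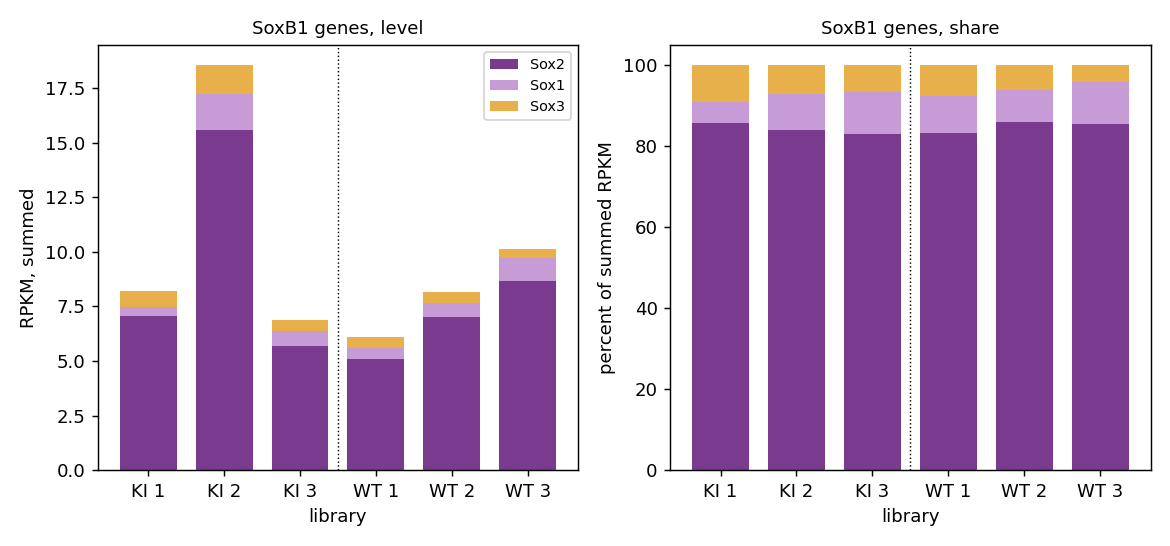
Summed RPKM of Sox2, Sox1 and Sox3 in each library (left) and the percent of that sum held by each gene (right), with KI libraries left of the dotted line and WT libraries right of it. The total runs from 6.09 RPKM in WT 1 to 18.6 RPKM in KI 2, while the share of Sox2 lies between 83.0% and 85.9%.

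Sox21, the SoxB2 repressor, was at 1.51, 4.58 and 1.32 RPKM in KI 1, KI 2 and KI 3, against 1.13, 0.851 and 0.854 RPKM in WT 1, WT 2 and WT 3. All KI values lay above all WT values, KI 2 far above and KI 3 by a small margin over WT 1. Sox21 was the single gene of the 9 with this separation, which 4.02% of the 11392 genes with a mean of 0.5 RPKM or more also had. Among all tested genes 3.8% had the KI group wholly above the WT group, and 6.54% had groups apart in either direction. The means were 2.47 ± 1.83 RPKM in KI and 0.944 ± 0.158 RPKM in WT (mean ± SD over 3 libraries per group), a ratio of 2.62. The log2 difference was 0.72 (SE 0.34, 95% interval -0.07 to 1.51; adjusted p = 0.999 by limma), and the exact two-sided permutation p was 0.1, the smallest that 3 against 3 can give. The value depended on the setting: it was 0.32 without KI 2, 0.28 once WT 3 was left out as well, 0.44 under library weights, 1.09 with a pseudocount of 0.1, 1.12 by voom and 1.39 with a Y-linked covariate, and it was positive in each of the 16 alternatives tried.

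The reads behind Sox21 allow KI 2 to be told from each other library but not KI 1 and KI 3 from WT 1. Its 170 reads in KI 2 gave an exact Poisson 95% interval of 3.92 to 5.33 RPKM, and the highest upper bound of the other 5 libraries was 1.92 RPKM, in KI 1. The interval of KI 3 (58 reads, 1.01 to 1.71 RPKM) and that of WT 1 (57 reads, 0.853 to 1.46 RPKM) overlapped widely. The level of Sox2 was 4.67, 3.40 and 4.30 times that of Sox21 in KI 1, KI 2 and KI 3, and 4.50, 8.24 and 10.2 times in WT 1, WT 2 and WT 3, so the groups overlapped in this ratio through WT 1.

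Pax6, the paired-box homeodomain factor of forebrain, eye and spinal cord progenitors, was the least variable of the 9 genes across all 6 libraries. It was at 2.02, 1.73 and 1.46 RPKM in KI 1, KI 2 and KI 3 and at 1.96, 1.96 and 1.48 RPKM in WT 1, WT 2 and WT 3, from 197 to 306 reads. KI 2 lay in the middle of these values. The means of 1.74 ± 0.28 RPKM in KI and 1.80 ± 0.28 RPKM in WT (mean ± SD over 3 libraries per group) differed by -0.03 on the log2(RPKM + 1) scale (95% interval -0.43 to 0.37; adjusted p = 0.999 by limma). Differences inside that interval are not excluded by these data, and the interval is not a limit of detection.

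Irx3, the Iroquois homeodomain factor, was at 1.35, 2.41 and 1.10 RPKM in KI 1, KI 2 and KI 3 and at 0.897, 1.46 and 1.01 RPKM in WT 1, WT 2 and WT 3. KI 2 was again highest, and KI 1 and KI 3 lay within the WT range. The log2 difference of 0.28 (SE 0.23, 95% interval -0.25 to 0.82; adjusted p = 0.999 by limma) became 0.08 without KI 2. Its values rest on 33 to 65 reads per library.

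Nes, which encodes nestin, was at 2.68, 2.60 and 1.95 RPKM in KI 1, KI 2 and KI 3 and at 2.98, 2.72 and 0.897 RPKM in WT 1, WT 2 and WT 3. Its lowest library was WT 3, from 78 reads, and the other 5 libraries lay between 1.95 and 2.98 RPKM. The means were 2.41 ± 0.40 RPKM in KI and 2.20 ± 1.14 RPKM in WT (mean ± SD over 3 libraries per group). The log2 difference of 0.16 (95% interval -0.55 to 0.87; adjusted p = 0.999 by limma) turned to -0.18 without WT 3. WT 3 was the lowest library for 51.8% of all tested genes.

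Zic1, a zinc-finger factor of the dorsal neural tube, was at 0.824, 2.03 and 0.579 RPKM in KI 1, KI 2 and KI 3 and at 0.791, 1.48 and 0.168 RPKM in WT 1, WT 2 and WT 3. It had the widest relative range of the 9 genes, with 13 reads in WT 3 and 113 in KI 2, and the groups overlapped (exact two-sided permutation p = 0.6). Its mean log2 difference of 0.25 became -0.03 without either KI 2 or WT 3 and -0.31 without both. Zic2, whose loss is known to disturb forebrain and neural tube formation in mouse, was at 0.996, 1.49 and 0.301 RPKM in KI 1, KI 2 and KI 3 and at 0.652, 0.794 and 0.768 RPKM in WT 1, WT 2 and WT 3. KI 3 was its lowest library, with 10 reads and an exact Poisson 95% interval of 0.144 to 0.554 RPKM. That interval lay below all 3 WT values but overlapped each WT interval. The WT intervals began at 0.422, 0.532 and 0.518 RPKM in WT 1, WT 2 and WT 3. For the groups the exact two-sided permutation p of Zic2 was 0.7. The mean log2 difference of Zic2, 0.10, became -0.11 without KI 2. The share of Zic1 in the sum of Zic1 and Zic2 was 45.3%, 57.6% and 65.8% in KI 1, KI 2 and KI 3 and 54.8%, 65.1% and 18.0% in WT 1, WT 2 and WT 3, where WT 3 rests on 13 Zic1 reads and the other 5 libraries lay between 45.3% and 65.8%. Exons of Zic1 overlap those of its neighbour Zic4 on the opposite strand in GENCODE M21, and Zic4 did not exceed 0.276 RPKM. Sox1 overlaps the microRNA gene model Gm25239, Sox21 the lincRNA Gm4675 and Irx3 the antisense Irx3os, none of which is among the symbols used, and without strand information reads of overlapping genes cannot be told apart.

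**Figure D3:**
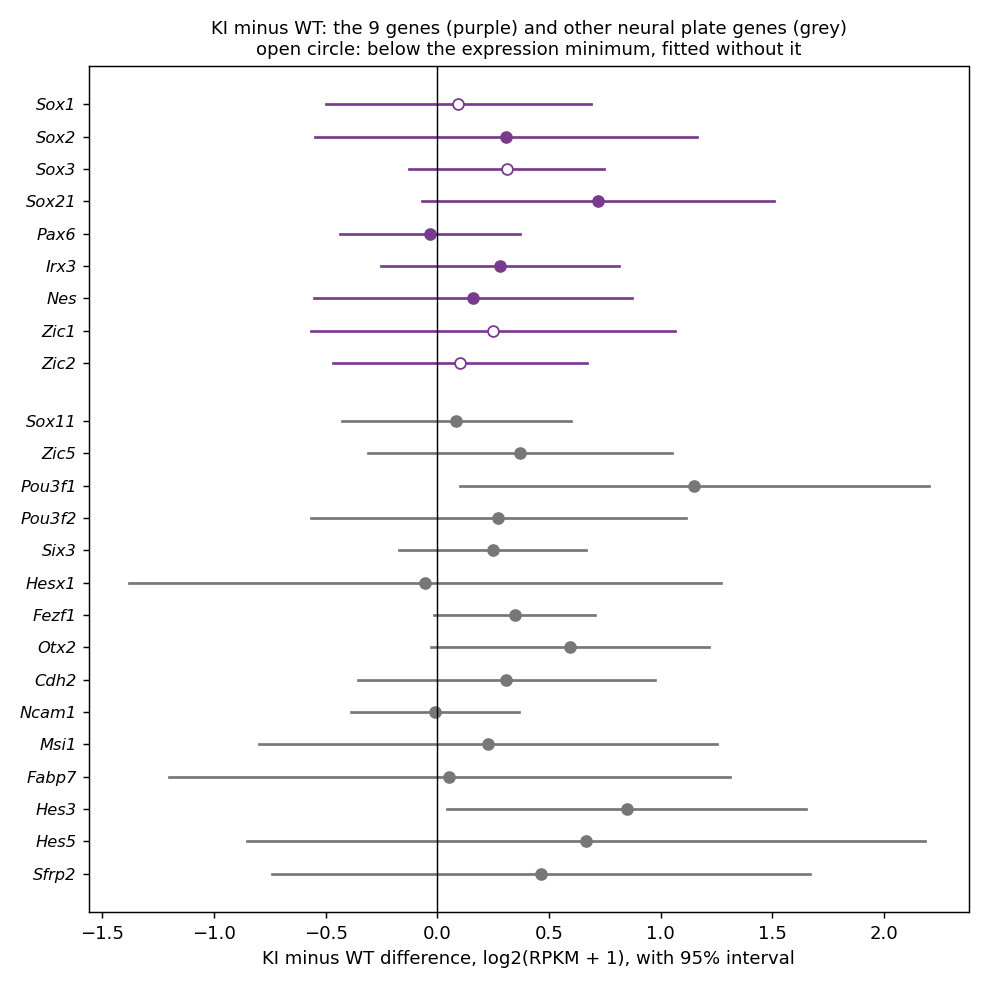
KI minus WT difference on the log2(RPKM + 1) scale (horizontal axis) with its 95% interval from limma for the 9 genes (purple) and tested genes of the neural plate list that are reported here (grey), where open circles mark genes below the expression minimum, fitted without it. The intervals of all 9 genes cover 0, and the difference of Sox21, 0.72, is the largest of the 9.

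KI 2 stood out for most of these genes. The ratio of KI 2 to the mean of the other 5 libraries was 4.04 for Sox21, 2.64 for Zic1, 2.56 for Sox3, 2.44 for Sox1, 2.33 for Sox2, 2.13 for Zic2 and 2.07 for Irx3, against 1.16 for Nes and 0.976 for Pax6. KI 2 was the highest library for 7 of the 9 genes, and for 17.9% of the 11392 genes with a mean of 0.5 RPKM or more. Of the 5 tested genes it was the highest library for 3, against 17.5% of all tested genes. The summed RPKM of the 9 genes was 17.6, 33.4 and 13.6 in KI 1, KI 2 and KI 3 and 14.5, 17.4 and 15.3 in WT 1, WT 2 and WT 3. In this sum KI 1 lay just above and KI 3 just below the WT range.

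Markers of other tissues moved in KI 2 as well. All 8 yolk sac endoderm markers and all 7 heart markers were lowest in KI 2. The yolk sac markers summed to 9.19 RPKM in KI 2, against 543 and 652 RPKM in libraries KI 1 and KI 3 and 433 to 1239 RPKM in WT. The heart markers summed to 103 RPKM in KI 2, against 348 and 421 RPKM in libraries KI 1 and KI 3 and 339 to 419 RPKM in WT. Paraxial mesoderm markers summed to 25.1 RPKM in KI 2, 39.4 and 43.5 RPKM in libraries KI 1 and KI 3 and 35.3 to 53.3 RPKM in WT, and surface ectoderm markers to 29.7, against 45.4 and 51.0 in libraries KI 1 and KI 3 and 46.3 to 49.2 RPKM in WT. Endothelial markers summed to 17.5 RPKM in KI 2, 34.8 and 40.0 in libraries KI 1 and KI 3 and 23.7 to 30.3 RPKM in WT. Primitive blood markers summed to 2439 RPKM in KI 2, 2055 and 2063 in libraries KI 1 and KI 3 and 1778 to 2628 RPKM in WT. Neural crest markers summed to 27.7, 30.1 and 32.2 RPKM in KI 2, KI 1 and KI 3 and 25.2 to 34.3 RPKM in WT. Most of the neural crest sum came from Ets1, at 18.7 RPKM in KI 2 and 22.5 to 27.0 RPKM in the other libraries. Of the 6 neural crest genes, untested ones included, 4 were highest in KI 2. The part of these differences between libraries in the levels of the 9 genes was not tested.

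**Figure D4:**
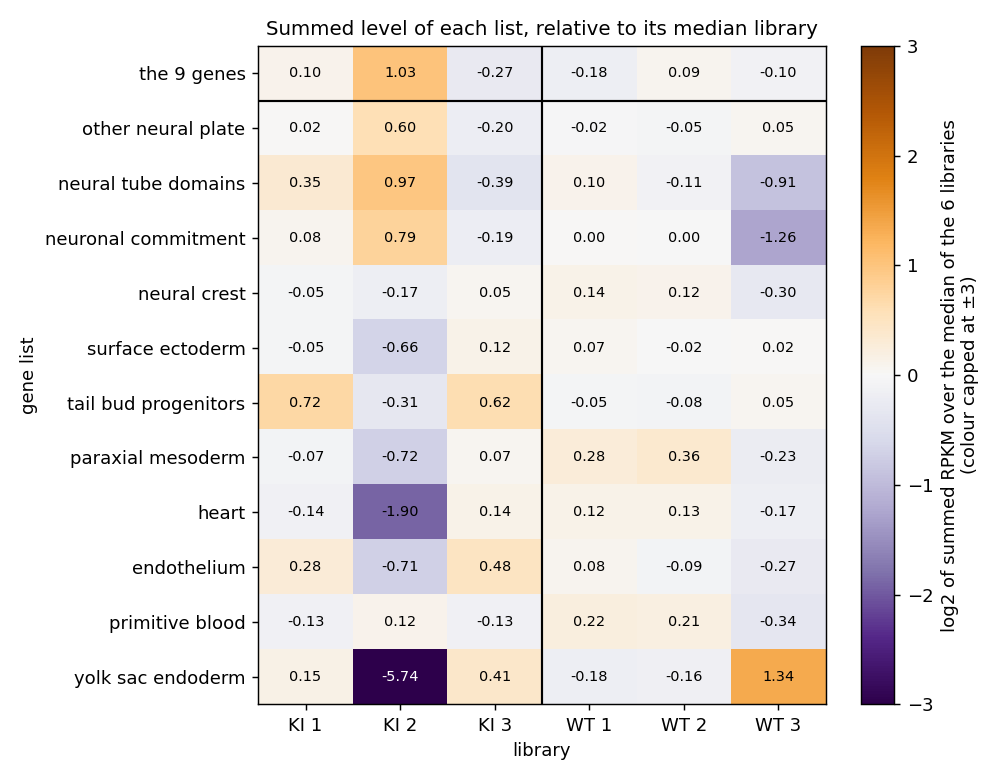
Log2 of the summed RPKM of each gene list in each library over the median of the 6 libraries, with KI libraries left of the vertical line and WT libraries right of it, and colour capped at ±3. In KI 2 the 9 genes (1.03), the neural tube domain genes (0.97) and the neuronal commitment genes (0.79) are high, and the heart (-1.90) and yolk sac endoderm (-5.74) markers are low. In WT 3 the neural tube domain genes (-0.91) and the neuronal commitment genes (-1.26) are low and the yolk sac endoderm markers (1.34) high.

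KI 2 was also the highest library for many other neural genes. Of 20 further neural plate genes 16 were tested, 0 passed the threshold in either direction, 14 differences were positive and 2 negative, and the median was 0.29, against 58.8% positive and a median of 0.05 over all tested genes. KI 2 was the highest library for 10 of the 16, against 17.5% of all tested genes. WT 3 was the lowest for 9 of the 16, against 51.8% of all tested genes. Sox11, a SoxC factor expressed widely in the embryo, had the highest level of the list, at 249, 388 and 228 RPKM in KI 1, KI 2 and KI 3 and 252, 244 and 300 RPKM in WT 1, WT 2 and WT 3. The radial glia fatty acid binding protein gene Fabp7 was at 35.3 RPKM in KI 2, at 11.7 and 6.04 RPKM in libraries KI 1 and KI 3 and at 12.2 to 13.8 RPKM in WT. The secreted Wnt inhibitor gene Sfrp2 averaged 20.7 ± 6.1 RPKM in KI and 17.0 ± 10.1 RPKM in WT, and N-cadherin, Cdh2, averaged 18.8 ± 1.4 RPKM in KI and 15.7 ± 5.7 RPKM in WT (mean ± SD over 3 libraries per group), both within their spread. The POU factor gene Pou3f1 and the Hes factor gene Hes3, named after their values were seen, were the members with an unadjusted p under 0.05 (log2 differences 1.15 and 0.85, adjusted p = 0.999 for both by limma). Without both WT 3 and KI 2 the list had 1 call, Hesx1, a forebrain homeobox gene (log2 difference 0.84, adjusted p = 0.0497 by limma). In that setting 0.406% of all tested genes were called, and the remaining libraries differ in Y-linked expression. Hesx1 was at 17.6 RPKM in the left-out WT 3, against 3.31 and 3.29 RPKM in WT 1 and WT 2. It was at 7.24, 4.19 and 6.19 RPKM in KI 1, KI 2 and KI 3. With all 6 libraries its log2 difference was -0.05. Of the 9 genes, the 5 tested were not called without both WT 3 and KI 2. Nor were they called with library weights, where 0.92% of all tested genes were called. Sox1, Sox3, Zic1 and Zic2 were below the expression minimum and were not tested in these 2 settings.

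Of 12 dorsoventral neural tube factors 8 were tested and 0 passed, with 6 differences positive and 2 negative (median 0.34). Of the 8, 7 were highest in KI 2 and 4 were lowest in WT 3. Over all tested genes 58.8% had a positive difference, 17.5% were highest in KI 2 and 51.8% were lowest in WT 3. Nkx2-9, a ventral homeobox gene, averaged 12.7 ± 6.5 RPKM in KI and 6.83 ± 2.94 RPKM in WT, and Nkx6-1, a ventral progenitor factor, averaged 5.04 ± 2.41 RPKM in KI and 2.44 ± 1.16 RPKM in WT (mean ± SD over 3 libraries per group). Pax3 and Msx3, both dorsal, averaged 4.25 ± 0.70 and 2.498 ± 0.850 RPKM in KI and 3.37 ± 0.81 and 1.82 ± 1.26 RPKM in WT. Of 12 genes of neuronal commitment 6 were tested and 0 passed, all 6 differences were positive (median 0.48), and 5 of the 6 were highest in KI 2. WT 3 was the lowest library for 5 of the 6, and the summed level of the list was 24.1, 39.3 and 19.9 RPKM in KI 1, KI 2 and KI 3 and 22.7, 22.7 and 9.46 RPKM in WT 1, WT 2 and WT 3. The part of WT 3 in these positive differences was not tested. Neuronal tubulin Tubb3 was at 8.89, 14.9 and 6.73 RPKM in KI 1, KI 2 and KI 3 and at 6.99, 7.52 and 2.05 RPKM in WT 1, WT 2 and WT 3. The Notch ligand gene Dll3 averaged 5.31 ± 2.00 RPKM in KI and 3.74 ± 2.55 RPKM in WT (5.20 RPKM as the mean of WT 1 and WT 2), the neuronal RNA-binding protein gene Elavl4 3.31 ± 2.12 RPKM in KI and 2.61 ± 1.07 RPKM in WT, and the stathmin family gene Stmn2 3.07 ± 0.52 RPKM in KI and 1.66 ± 1.21 RPKM in WT (mean ± SD over 3 libraries per group), all without a call. With library weights Stmn2 was called (log2 difference 0.89, adjusted p = 0.0260 by limma). The weights were 7.75, 0.395 and 1.25 for KI 1, KI 2 and KI 3 and 0.695, 3.41 and 0.110 for WT 1, WT 2 and WT 3. KI 1 and WT 2, which weighed most, differ in Y-linked expression.

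Within the same gene families, relatives outside the 9 did not pass the threshold either. Of 15 other Sox genes, Sox11 included, 9 were tested, with 5 differences positive and 4 negative (median 0.08). The SoxC gene Sox4 was at 30.4, 41.5 and 31.4 RPKM in KI 1, KI 2 and KI 3 and at 29.4 to 30.6 RPKM in WT, and Sox9, a factor of neural crest, cartilage and glia, averaged 14.0 ± 2.1 RPKM in KI and 11.9 ± 0.2 RPKM in WT (mean ± SD over 3 libraries per group). None of the other Pax or Irx genes passed. Of 8 other Pax genes 2 were tested, Pax3 and Pax8, the second a kidney and thyroid factor with KI wholly above WT at 2.71 to 3.50 RPKM in KI and 2.12 to 2.44 RPKM in WT. Of 5 other Irx genes 2 were tested, 1 positive and 1 negative. Zic5, which lies beside Zic2, was at 2.40, 3.90 and 1.47 RPKM in KI 1, KI 2 and KI 3 and at 2.41, 1.47 and 1.27 RPKM in WT 1, WT 2 and WT 3. Irx5, the neighbour of Irx3, was at 1.83, 2.55 and 0.915 RPKM in KI 1, KI 2 and KI 3 and at 1.13, 1.36 and 1.11 RPKM in WT 1, WT 2 and WT 3. Both Zic5 and Irx5 were highest in KI 2, as were Zic2 and Irx3. Among 8 other intermediate filament genes 4 were tested, 2 positive and 2 negative, and vimentin, Vim, averaged 20.4 ± 8.9 RPKM in KI and 20.3 ± 5.4 RPKM in WT.

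The tail bud list and the lists of other tissues gave 0 calls with all 6 libraries weighted alike. With library weights, largest for KI 1 and WT 2, the tail bud genes Cdx4 and Nkx1-2 were called higher in KI. The paraxial mesoderm gene Myf5 and the blood gene Hba-x were called lower with the same weights. Without both WT 3 and KI 2, Cdx4 was called higher in KI and the globin genes Hba-x and Hbb-y lower. These genes were chosen after their values were seen. Genes of the early epiblast summed to 4.08, 0.495 and 4.71 RPKM in KI 1, KI 2 and KI 3 and to 2.09 to 3.59 RPKM in WT. Of these 7 genes 1 was tested, Tdgf1, which made up most of the sum in KI 1 and KI 3. It was at 3.05, 0.195 and 3.47 RPKM in KI 1, KI 2 and KI 3 and at 1.52 to 1.84 RPKM in WT. Tail bud progenitor genes had 5 of 6 tested differences positive (median 0.34), against 58.8% of all tested genes. Their sum in KI 2, 56.5 RPKM, was the lowest of the 6 libraries, against 115 and 107 RPKM in libraries KI 1 and KI 3 and 66.2 to 72.3 RPKM in WT. Cdx4 made up most of this sum, at 35.6 RPKM in KI 2, 78.9 and 76.7 RPKM in KI 1 and KI 3 and 40.1 to 56.8 RPKM in WT. Of the 6 tested genes 2 were lowest in KI 2 and 3 in WT 3, where 51.8% of all tested genes were lowest. Brachyury, T, averaged 9.55 ± 2.61 RPKM in KI and 6.80 ± 0.50 RPKM in WT (mean ± SD over 3 libraries per group), with the groups apart, and Sox21 and T thus had their highest values in different KI libraries, KI 2 and KI 1.

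The promoters of Sox2, Sox21 and Nes are shown to compare genes that were highest in KI 2 with a progenitor gene that was not. The sequences, matched by symbol, are the 250 bases before the start site in RefSeq on build GRCm38.p6, and 7 of the 9 genes had an entry. They are written 5′ to 3′ on the strand of the gene, with matches of the GC box GGGCGG on either strand in capitals. Sox2 lies at chr3:34649745-34649994 (+), Sox21 at chr14:118237031-118237280 (-) and Nes at chr3:87970843-87971092 (+).
Sox2: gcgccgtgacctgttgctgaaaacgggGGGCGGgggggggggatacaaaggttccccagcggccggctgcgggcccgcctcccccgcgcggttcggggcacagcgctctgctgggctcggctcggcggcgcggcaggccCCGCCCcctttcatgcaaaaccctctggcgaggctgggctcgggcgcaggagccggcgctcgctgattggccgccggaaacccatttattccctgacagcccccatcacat
Sox21: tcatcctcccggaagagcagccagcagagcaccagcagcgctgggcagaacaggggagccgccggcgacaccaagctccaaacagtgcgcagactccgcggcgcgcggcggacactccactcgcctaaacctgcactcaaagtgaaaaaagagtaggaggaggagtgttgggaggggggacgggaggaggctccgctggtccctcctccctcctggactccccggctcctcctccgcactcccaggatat
Nes: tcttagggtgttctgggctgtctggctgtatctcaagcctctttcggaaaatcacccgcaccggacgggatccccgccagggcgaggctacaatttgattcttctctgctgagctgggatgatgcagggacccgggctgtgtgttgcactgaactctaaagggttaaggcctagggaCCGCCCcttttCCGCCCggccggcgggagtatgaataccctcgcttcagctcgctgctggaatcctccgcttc

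The Sox2 promoter held 27 CpG dinucleotides and 72.0% GC, the Sox21 promoter 17 and 65.2%, and the Nes promoter 15 and 58.8%, against medians of 6 and 52.4% over 32851 start sites. The GC box was found in Sox1, Sox2, Nes and Zic1, that is in 4 of the 7 genes with an entry and in 32.7% of all start sites. The CCAAT box, searched as CCAAT on either strand, was found in Sox1, Sox2, Pax6 and Zic1 and in 33.8% of all start sites. The TATA box (TATAAA) and the SOX core (ACAATG), each on either strand, were found in none of the 7 and in 12.4% and 10.7% of all start sites. The Sox21 promoter held no GC box and the Nes promoter held 2.

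Genes whose pattern over the 6 libraries was most like that of each tested gene were named as a description, out of 9823 eligible genes. The highest Pearson's r on the log2(RPKM + 1) scale over 6 libraries was 0.991 for Sox2, with the RNA-binding protein gene Khdrbs3, 0.994 for Sox21, with Gatad2b, and 0.993 for Irx3, with Mcts1. For Pax6 it was 0.999, with the syntaxin gene Stx2, and for Nes 0.999, with the cell cycle phosphatase gene Cdc25b. The next places were held by Wwp1 and Fzd1 for Sox2, Klf4 and Pogz for Sox21, Lsm12 and Kctd12b for Irx3, Prmt3 and Rrs1 for Pax6 and Rara and Slc25a3 for Nes, at r of 0.983 to 0.996. The mean profile of the 5 tested genes was most like that of Mllt3 (r = 0.995), Rnf144a, Tfb1m, H2-T22 and Ptbp2. Khdrbs3 was, like Sox2, highest in KI 2, at 4.39, 6.43 and 3.86 RPKM in KI 1, KI 2 and KI 3 and 3.89, 4.31 and 4.65 RPKM in WT 1, WT 2 and WT 3. All 6 points share libraries and depth with the genes they are compared with, and the named genes are those with the highest of 9823 coefficients.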

How the data were processed

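Poly(A) RNA was selected with oligo(dT) beads before SMARTER mRNA-seq library construction, per the labels' protocols. Per the submitters' processing notes the build was GRCm39. The aligner, counter, annotation and strand setting are not given in the sources used here. All deposited values are RPKM, judged from the values, although the labels name a table of raw counts. Times the merged exon length in GENCODE M21 (build GRCm38, lengths, names and overlaps only), between 97.9% and 98.0% of nonzero values under 2000 reads were whole reads within 0.05, which gave the depths. Where a symbol had several rows (20 symbols), only its highest row by mean entered.

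The 9 genes and the gene lists were chosen with earlier results of these data known. The comparison of KI with WT used limma 3.58.1 (R 4.3.3) after a filter of 1 RPKM in 3 or more libraries. Its scale was log2(RPKM + 1), which understates changes of low genes, with trend, robust prior and no covariate, and p-values were adjusted over all genes tested. A count test had been planned only if counts were deposited. The test was checked on simulated data in which no library stood apart, so the check does not give its power in these data. For each of the 9 genes all 20 arrangements of the libraries gave an exact permutation p. Named in the text were the 9 genes, then up to 4 per list with the highest mean, then the most similar profiles with a regular symbol. The labels give no batch. Same-numbered libraries did not clearly deviate together, though the check cannot exclude a pairing. Alternatives covered scaling, pseudocount, filter, voom, prior, replicate block, library weights, a Y-linked covariate and left-out libraries. Leaving libraries out of the composition shares was added after seeing the data. Some genes of the lists are not reported here.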

Additional observations from a re-analysis of the deposited data

How the results depend on the processing

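The count of 0 genes past the threshold stayed 0 in 14 of 16 alternatives, each single left-out library included (0 to 0). It was 93 with library weights and 41 without both WT 3 and KI 2. The 5 tested genes of the 9 were not called in any of 80 refits (lowest adjusted p = 0.244, for Sox21 with library weights), and Sox21 and Irx3 kept their direction throughout. Directions turned for Sox2 without KI 2 (-0.084), for Pax6 with a Y-linked covariate (0.0098) and without KI 3 (0.042), WT 1 (0.01) or WT 2 (0.0090), and for Nes with library weights (-0.049), without WT 3 (-0.18) and without both WT 3 and KI 2 (-0.22). With 1 library left out, differences ran from -0.084 to 0.57 for Sox2, -0.12 to 0.042 for Pax6 and -0.18 to 0.35 for Nes. The replicate block gave 0 calls. Same-numbered libraries correlated at 0.12, -0.05 and 0.01 in their deviations, values that cannot exclude a pairing. Counted as reads without length, the Sox2 share of SoxB1 was 76.1% in KI and 75.7% in WT, and the Zic1 share of Zic1 plus Zic2 was 71.4% in KI and 59.8% in WT, because transcript lengths differ. With 1 library left out, the Sox2 share ran from 83.5% to 84.9% in KI and from 84.4% to 85.7% in WT, and the Zic1 share from 51.5% to 61.7% in KI and from 36.4% to 59.98% in WT. At 10 to 42 reads per library for Sox3 and Zic2, counting error limits each value.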
